A study of Homo sapiens with 4 samples.

Results

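The 6 human GATA factors and their 2 FOG cofactors were described in CD31+ cells of the H1 human embryonic stem cell line, collected at day 8 of stepwise hematopoietic differentiation with or without overexpression of HAND1. Members were taken by gene symbol, GATA1 to GATA6 plus ZFPM1 and ZFPM2, which gave 8 of the 58365 rows of the deposited expression table. Following the lineages in which they are best known, GATA1, GATA2, GATA3 and ZFPM1 were set against GATA4, GATA5, GATA6 and ZFPM2, here called the blood set and the cardiac and endoderm set. The question addressed was which of these factors changed in the CD31+ fraction when HAND1 was overexpressed.

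The series held 4 bulk RNA-seq libraries, 2 from H1 cells without the overexpression (Control) and 2 from H1 cells with it (HAND1_OE). Both groups received activinA and BMP4 and then VEGF and bFGF, and both were collected as CD31+ cells at day 8. CD31 is the surface protein encoded by PECAM1 and marks endothelial cells and the hemogenic endothelium from which blood progenitors bud. The labels do not say that the libraries of a group came from separate cultures, so the p-values measure only the spread between these libraries, which may be technical. They also do not give the clone or construct, and the transcripts from the introduced and the endogenous HAND1 could not be separated.

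GATA factors are zinc-finger transcription factors that bind the sequence for which they are named. GATA1 drives erythroid and megakaryocyte differentiation, GATA2 maintains hematopoietic progenitors and acts in endothelium, and GATA3 is best known in T cells and trophoblast, while GATA4, GATA5 and GATA6 act in heart and endoderm. The FOG cofactors do not bind DNA on their own but dock onto the amino-terminal finger of a GATA factor, ZFPM1 (FOG1) chiefly with GATA1 and ZFPM2 (FOG2) chiefly with GATA4.

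HAND1 itself was at 12.1 and 14.3 FPKM in Control versus 520.5 and 517.4 FPKM in HAND1_OE, where FPKM is fragments per kilobase of transcript, scaled to the mapped fragments of the library. All 4 libraries therefore matched their labels for the overexpressed gene. PECAM1 was at 95.5 and 141.2 FPKM in Control versus 92.0 and 160.2 FPKM in HAND1_OE, and the summed FPKM of 11 endothelial markers was 1858 to 2261 in Control and 1920 to 2146 in HAND1_OE. Between 13989 and 14542 rows reached 1 FPKM in a library. The number of reads behind the values is unknown.

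All 8 GATA and FOG genes passed the filter of at least 1 FPKM in at least 2 libraries, and 1 of them, GATA1, was called lower with HAND1 overexpression. Calls were made at an adjusted p under 0.05 in limma's moderated test on log2(FPKM + 1), with Benjamini-Hochberg adjustment over 14622 genes. In that test 4.16% of all genes were called, 2.04% higher and 2.11% lower. No member was called higher, although GATA4 and GATA5 were higher, and GATA2 and ZFPM2 lower, at an unadjusted p under 0.05 in the same test. The 2 HAND1_OE libraries lay wholly above or wholly below the 2 Control libraries for 6 of the 8 members, against 46.3% of all genes tested. Two-sided exact permutation of 2 against 2 libraries cannot give a p below 0.333 for any single gene.

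**Figure D1:**
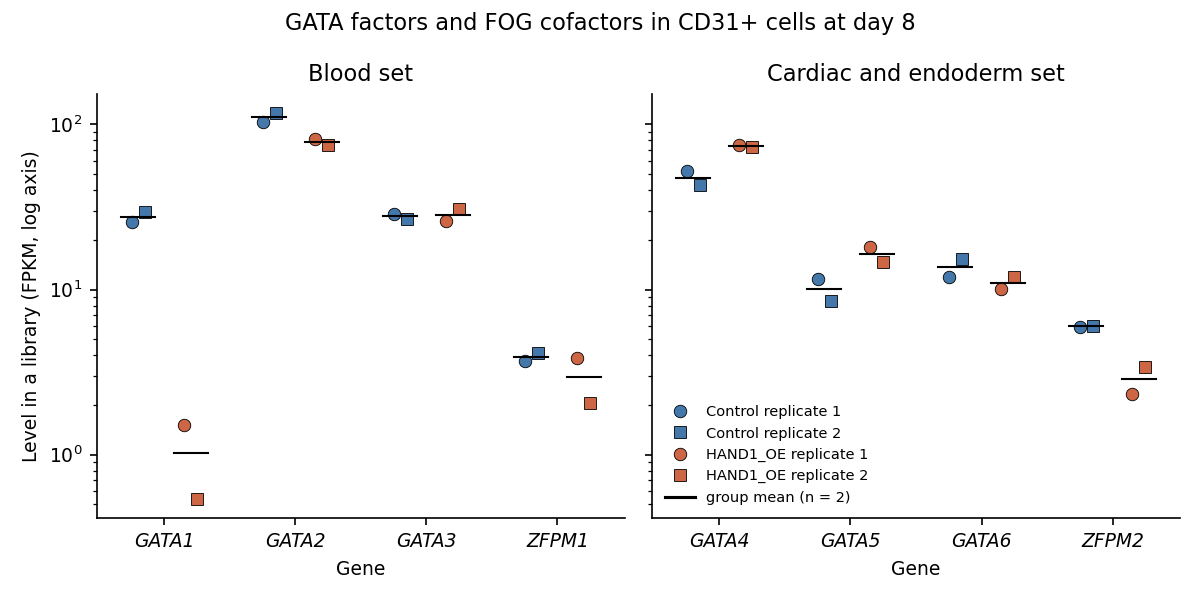
Level of each GATA factor and FOG cofactor (FPKM, log axis) in each of the 4 libraries, with circles for replicate 1, squares for replicate 2, blue for Control, orange for HAND1_OE and a black bar for the group mean (n = 2). GATA1 fell from 25.6 and 29.6 FPKM to 1.51 and 0.543 FPKM, whereas the group means of the other genes differed by at most 2.10-fold.

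GATA1 (ENSG00000102145.13, chrX:48786554-48794311, plus strand, coordinates of GRCh38), the master regulator of red cells and platelets, was at 25.6 and 29.6 FPKM in Control versus 1.51 and 0.543 FPKM in HAND1_OE. Both HAND1_OE values lay far below both Control values. The group means were 27.6 ± 2.83 and 1.02 ± 0.682 FPKM (SD, n = 2), a 26.9-fold difference. On the log2(FPKM + 1) scale, which understates changes of low genes, GATA1 fell by 3.86 (SE 0.27, 95% interval -4.53 to -3.19, limma adjusted p = 0.007). GATA1 reached 1 FPKM in 3 of the 4 libraries, and HAND1_OE replicate 2 was the one below. With the filter set at 1 FPKM in every library GATA1 was therefore not tested, and with all genes above 0 FPKM admitted its adjusted p was 0.153.

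GATA2 (ENSG00000179348.11, chr3:128479427-128493185, minus strand), which acts in both endothelium and blood progenitors, was the most abundant of the 8 genes. It was at 103.1 and 117.5 FPKM in Control versus 81.9 and 74.5 FPKM in HAND1_OE. The groups did not overlap, yet the difference of -0.49 (SE 0.15, 95% interval -0.87 to -0.11) did not pass the test (adjusted p = 0.18). HAND1_OE therefore kept a mean of 78.2 FPKM of GATA2 beside 1.02 FPKM of GATA1.

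The GATA1 to GATA2 ratio stated this within each library and does not depend on scaling between libraries. It was 0.248 and 0.252 in the Control libraries, and 0.0184 and 0.00728 in the HAND1_OE libraries. On the log2 scale the mean ratio was -2.0 ± 0.015 in Control and -6.43 ± 0.95 in HAND1_OE (SD, n = 2), a difference of -4.43. The 2 HAND1_OE libraries differed from each other by more than the 2 Control libraries did, and both were far below Control.

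The bases before the RefSeq starts of GATA1 and GATA2 are shown because GATA1 is the called gene and GATA2 is its most abundant relative. The build is GRCh38.p14, each run is 250 bases read 5′ to 3′ on the strand of the gene, and capitals mark E-boxes (CANNTG), the class of site that HAND1 and other basic helix-loop-helix factors bind.
GATA1, chrX:48786340-48786589, plus strand: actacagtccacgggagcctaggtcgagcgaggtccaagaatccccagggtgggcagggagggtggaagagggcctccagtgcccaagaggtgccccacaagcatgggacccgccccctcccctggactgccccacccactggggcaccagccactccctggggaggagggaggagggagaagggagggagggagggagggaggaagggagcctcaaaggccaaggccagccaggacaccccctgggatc
GATA2, upstream start, chr3:128493202-128493451, minus strand: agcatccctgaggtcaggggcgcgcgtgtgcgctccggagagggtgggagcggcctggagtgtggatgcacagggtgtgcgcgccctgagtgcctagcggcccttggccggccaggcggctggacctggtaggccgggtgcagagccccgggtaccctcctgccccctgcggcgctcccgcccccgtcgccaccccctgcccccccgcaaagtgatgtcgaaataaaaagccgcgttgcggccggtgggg
GATA2, downstream start, chr3:128488531-128488780, minus strand: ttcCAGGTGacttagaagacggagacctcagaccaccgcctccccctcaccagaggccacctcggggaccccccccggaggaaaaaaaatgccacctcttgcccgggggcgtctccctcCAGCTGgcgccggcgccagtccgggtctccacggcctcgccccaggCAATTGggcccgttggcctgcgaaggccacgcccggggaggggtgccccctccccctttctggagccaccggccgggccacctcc
The window before GATA1 held no E-box, and neither did that before the upstream start of GATA2. Before the downstream start of GATA2 there were 3, the capitals above, which began 247, 131 and 85 bases before the start. Among 35116 RefSeq windows of the same length, 61.8% held at least 1 E-box.

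GATA motifs, searched as AGATAA and as the variants of it with T first or G last, on both strands, were found in 22.3% of the 35116 windows and in none of the 11 windows of the 5 members with an entry, which were GATA1, GATA2, GATA3, GATA6 and ZFPM1. E-boxes were found in 2 of the 6 windows of GATA3 and in the window of GATA6, and not in that of ZFPM1. These matches describe the letters of a short window only. GATA4, GATA5 and ZFPM2 had no entry.

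GATA3 (ENSG00000107485.15, chr10:8053604-8075198, plus strand) was at 28.7 and 26.9 FPKM in Control versus 26.1 and 30.6 FPKM in HAND1_OE. The groups overlapped and the difference was 0.02 (SE 0.16, 95% interval -0.36 to 0.41, adjusted p = 0.967). The sign was not stable, with -0.023 when Control replicate 2 was left out and -0.088 when HAND1_OE replicate 2 was left out. GATA3 and GATA1 stood at like levels in Control, where their ranges overlapped, and were 26.1 or more against 1.51 or less FPKM in HAND1_OE.

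ZFPM1 (ENSG00000179588.8, chr16:88453317-88537016, plus strand), the FOG cofactor that GATA1 needs in both of its lineages, was the least abundant member in Control at 3.71 and 4.15 FPKM. In HAND1_OE it was at 3.85 and 2.05 FPKM, and the groups overlapped. The difference of -0.36 (SE 0.27, 95% interval -1.02 to 0.31, adjusted p = 0.594) rested on HAND1_OE replicate 2, since it was -0.02 without that library and -0.69 without HAND1_OE replicate 1. Relative to its partner, ZFPM1 went from 0.145 and 0.140 of the GATA1 FPKM in the Control libraries to 2.56 and 3.78 times it in the HAND1_OE libraries.

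Among the cardiac and endoderm factors, GATA4 (ENSG00000136574.17, chr8:11676959-11760002, plus strand), which the study counts among its mesenchymal genes, was the second most abundant member. It was at 52.3 and 42.9 FPKM in Control versus 75.0 and 72.7 FPKM in HAND1_OE. Both HAND1_OE values were above both Control values, with a ratio of means of 1.55. The difference of 0.63 (SE 0.16, 95% interval 0.23 to 1.03) did not pass the test (adjusted p = 0.110). The study itself reports that GATA4, FN1 and FOXD1 were raised by HAND1 overexpression, citing a box plot over mesenchymal genes and a supplementary panel. Its main panel of representative mesenchymal genes in cells with HAND1 overexpression used real-time PCR, a measure unlike the FPKM given here. The study also reports HAND1 bound at the promoter regions of GATA4, FN1 and FOXD1.

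GATA5 (ENSG00000130700.6, chr20:62463497-62475970, minus strand), which acts in endocardium and endoderm, had values of 11.5 and 8.55 FPKM in Control versus 18.1 and 14.7 FPKM in HAND1_OE. These groups did not overlap either. Its difference was 0.66 (SE 0.20, 95% interval 0.15 to 1.17, adjusted p = 0.177), close in size to that of GATA4. The GATA4 to GATA5 ratio was 4.55 and 5.02 in Control and 4.14 and 4.96 in HAND1_OE, and these ranges overlapped.

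GATA6 (ENSG00000141448.8, chr18:22169443-22202528, plus strand), a factor of heart and extraembryonic endoderm, had the opposite sign. It was at 12.0 and 15.3 FPKM in Control versus 10.0 and 11.9 FPKM in HAND1_OE, the nearest values of the groups being 12.0 and 11.9. The difference was -0.29 (SE 0.19, 95% interval -0.76 to 0.18, adjusted p = 0.528), and was -0.13 without Control replicate 2, -0.18 without HAND1_OE replicate 1 and -0.46 without Control replicate 1. The GATA4 to GATA6 ratio was 4.37 and 2.80 in the Control libraries and 7.50 and 6.14 in the HAND1_OE libraries.

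ZFPM2 (ENSG00000169946.13, chr8:104590733-105804532, plus strand), the FOG cofactor of GATA4 in heart development, was at 5.95 and 6.06 FPKM in Control versus 2.34 and 3.37 FPKM in HAND1_OE. The groups did not overlap and the ratio of means was 0.476. After GATA1 it had the largest difference among the 8, -0.87 (SE 0.20, 95% interval -1.38 to -0.37, adjusted p = 0.0906), which did not pass the test. ZFPM2 stood at 0.114 and 0.141 of the GATA4 level in Control and at 0.0312 and 0.0464 of it in HAND1_OE, so the ratio was lower in both HAND1_OE libraries than in both Control libraries.

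**Figure D2:**
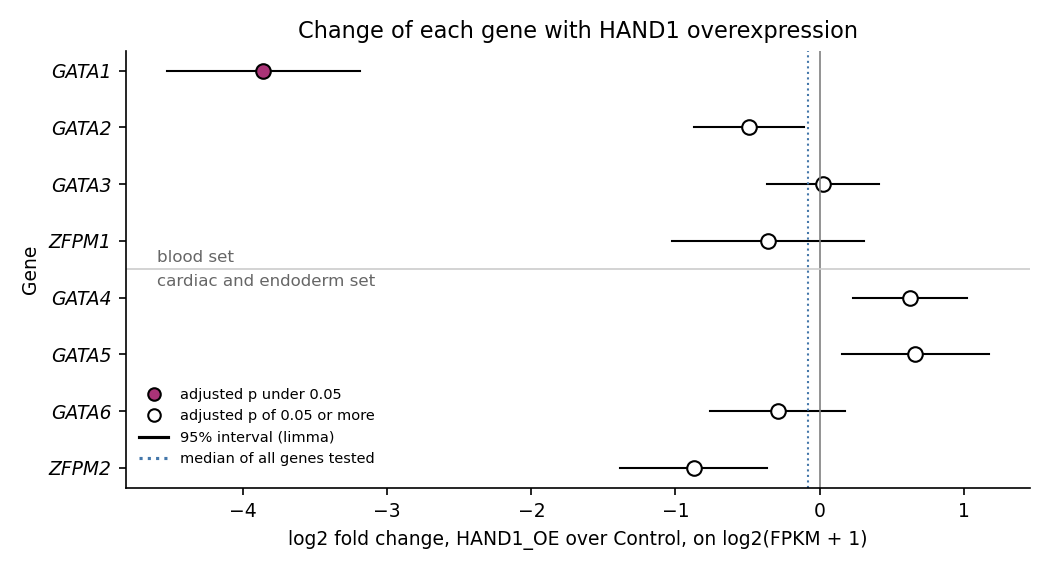
Difference between HAND1_OE and Control for each member on the log2(FPKM + 1) scale, with the 95% interval from limma, a filled point for an adjusted p under 0.05 and a dotted line at the median of all genes tested (-0.08). GATA1 at -3.86 is the only filled point, and the intervals of GATA3, ZFPM1 and GATA6 include 0.

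Set side by side, 1 of the 4 blood genes was called lower and none of the 4 cardiac and endoderm genes was called (limma, where GATA4, GATA5 and ZFPM2 had an unadjusted p under 0.05). The median difference was -0.42 over the blood set and 0.17 over the cardiac and endoderm set, against -0.08 over all genes tested. Neither set moved as a unit, since GATA3 was at 0.02 in the first, and GATA6 and ZFPM2 were at -0.29 and -0.87 in the second. The gap between the medians, 0.59, was 0.38 without HAND1_OE replicate 2 and 0.79 without HAND1_OE replicate 1.

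GATA1 moved to the end of the order of levels. In Control the order was GATA2, GATA4, GATA3, GATA1, GATA6, GATA5, ZFPM2 and ZFPM1 from high to low, and only GATA3 and GATA1 overlapped as neighbours. In HAND1_OE the order was GATA2, GATA4, GATA3, GATA5, GATA6, ZFPM1, ZFPM2 and GATA1, with overlap between GATA2 and GATA4 and between ZFPM1 and ZFPM2. GATA1 thus went from rank 4 to rank 8, and the 3 most abundant of the other members kept their ranks.

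The shares that GATA1, GATA2, GATA4 and GATA5 took of the GATA factor transcripts did not overlap between the groups, and those of GATA3 and GATA6 did. GATA1 made up 11.0% and 12.3% of the summed FPKM of the 6 factors in Control, and 0.709% and 0.265% in HAND1_OE. GATA2 went from 44.2% and 48.8% to 38.5% and 36.4%. The share of GATA4 was 22.4% and 17.8% in Control and 35.3% and 35.5% in HAND1_OE. GATA4, GATA5 and GATA6 together held 32.5% and 27.7% in the Control libraries and 48.5% and 48.4% in the HAND1_OE libraries. With GATA1 left out, the sum of the other 5 factors was 207.7 and 211.2 FPKM in Control versus 211.1 and 204.4 FPKM in HAND1_OE, and the groups overlapped.

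**Figure D3:**
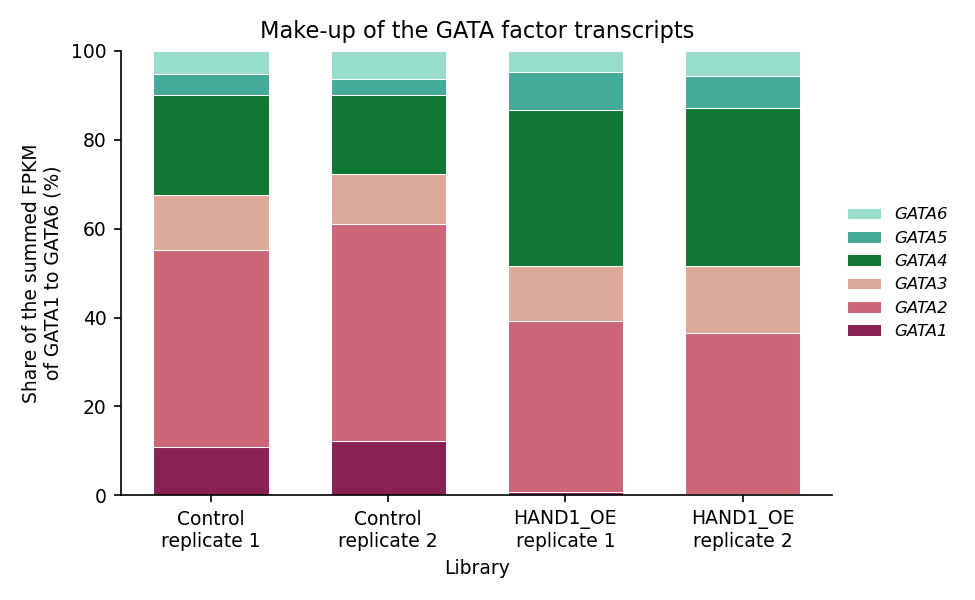
Share of each GATA factor in the summed FPKM of GATA1 to GATA6 (percent) in each library, stacked from GATA1 at the bottom to GATA6 at the top. The GATA1 band goes from 11.0% and 12.3% in Control to 0.709% and 0.265% in HAND1_OE, while the GATA4 band widens from 22.4% and 17.8% to 35.3% and 35.5%.

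3 members have an antisense neighbour in the table, and the library kit named in the labels does not keep the strand, so reads from overlapping exons cannot be assigned. GATA2-AS1 was at 16.8 and 19.7 FPKM in Control versus 25.6 and 19.8 FPKM in HAND1_OE. GATA3-AS1 was at 3.34 and 4.54 FPKM against 2.32 and 2.25 FPKM, and GATA6-AS1 at 9.97 and 8.80 FPKM against 4.37 and 5.94 FPKM. None was called, though 2 had a p under 0.05 before adjustment, with differences of 0.29, -0.58 and -0.76 and adjusted p of 0.518, 0.233 and 0.116 (limma). In GENCODE release 29 the exons of GATA6 and GATA6-AS1 share 240 bases, 6.08% of the exon bases of GATA6, and those of GATA2 and GATA3 share 0 bases with their antisense neighbours. The deposited coordinates differ for this pair. There GATA6-AS1 ends at 22168968 and GATA6 starts at 22169443, so the release 29 overlap need not apply to the FPKM given here.

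The partners that GATA1 and GATA2 use in blood cells fell with GATA1 in part. Of 18 hematopoietic partners, all tested, 10 were called lower and none higher, with a median difference of -1.21 against -0.08 over all genes. The red cell factor KLF1 went from 20.5 and 27.9 FPKM to 1.11 and 0.436 FPKM (-3.84, adjusted p = 0.007), and the platelet and red cell factor NFE2 from 33.3 and 40.2 FPKM to 2.42 and 1.26 FPKM (-3.76, adjusted p = 0.00662). RUNX1, which is needed for blood to emerge from endothelium, went from 16.5 and 35.0 FPKM to 1.52 and 1.89 FPKM (-3.22, adjusted p = 0.0132). The repressor GFI1B differed by -3.08 (adjusted p = 0.00754, limma). For each of these 4 genes the groups were wholly apart. GFI1B, and GFI1 among the other partners called, were under 1 FPKM in both HAND1_OE libraries and passed the filter through Control only.

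The adaptors that hold GATA1 on DNA with TAL1 changed less, and are named after their values were seen. LMO2 fell from 130.8 and 161.0 FPKM to 66.0 and 57.9 FPKM (-1.22, adjusted p = 0.0258), a call lost without Control replicate 2 or without HAND1_OE replicate 2 (adjusted p up to 0.0973). LDB1 differed by -0.88 (adjusted p = 0.0453), and its call was lost with any 1 library left out (adjusted p up to 0.218). TAL1, at 35.8 and 47.8 FPKM in Control versus 12.0 and 28.4 FPKM in HAND1_OE, did not pass the test (-1.12, adjusted p = 0.232).

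Many erythroid and megakaryocyte targets of GATA1 were called lower beside it. Of 25 erythroid targets 20 were tested, 8 were called lower and none higher, and the median difference was -1.10. KLF1, counted among the 8, also stands in the list of hematopoietic partners. At an unadjusted p under 0.05, 15 erythroid targets were lower, the called genes included, and 1 was higher. That gene was GYPC, at 86.5 and 69.4 FPKM in Control versus 179.7 and 129.8 FPKM in HAND1_OE (0.97, limma adjusted p = 0.0812). The 4 largest falls were GYPB, a red cell surface protein, at -4.93 (adjusted p = 0.00335), the embryonic globin gene HBE1 at -4.19 (adjusted p = 0.00607), the heme synthesis enzyme ALAS2 at -4.18 (adjusted p = 0.0073) and the fetal globin gene HBG2 at -4.15 (adjusted p = 0.00379). GYPB and HBG2 have near-identical copies in the genome, so their own share of the reads is uncertain. ALAS2 went from 35.3 and 72.0 FPKM to 1.82 and 1.87 FPKM, while UROS, another heme enzyme, was at 32.1 and 25.7 FPKM in Control versus 33.2 and 25.4 FPKM in HAND1_OE.

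Of 18 megakaryocyte targets 11 were tested, 9 were called lower and none higher, and the median was -2.27. NFE2 and GFI1B also stand in this list. ITGA2B, the platelet integrin alpha chain, went from 92.4 and 114.7 FPKM to 10.3 and 5.33 FPKM (-3.62, adjusted p = 0.0073), and its beta chain ITGB3 differed by -3.07 (adjusted p = 0.00851). The filter at 1 FPKM in every library left 3 genes of this list called lower. ITGB3, GP9, PF4, PLEK and GFI1B were under 1 FPKM in both HAND1_OE libraries and passed the main filter through Control only. Such genes could enter the test only as lower ones, so the count and the median of this list are in part set by the filter. The mast cell and eosinophil targets were mostly under the filter, with 3 of 12 tested and a median of -1.03 (-0.63 without HAND1_OE replicate 2). HDC, which makes histamine, was the gene called (-2.65, limma adjusted p = 0.007). It went from 7.79 and 6.41 FPKM to 0.346 and 0.234 FPKM, and it too passed the filter through Control only. Among the 6 markers of those cells EPX and CLC were at 0 in every library, and only PRG2 was tested. PRG2 was at 3.15 and 2.41 FPKM in Control versus 1.43 and 0.394 FPKM in HAND1_OE. It was not called (-1.03, limma adjusted p = 0.178) but was lower at an unadjusted p under 0.05. The 6 markers summed to 4.65 and 3.86 FPKM in Control versus 1.58 and 0.626 FPKM in HAND1_OE.

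Beside the fall of GATA1, 5 of the 6 tested hematopoietic progenitor markers were also called lower, among them ITGA2B, KLF1, RUNX1 and SPN, which encodes CD43 (-3.13, adjusted p = 0.007), and the summed FPKM of the 7 markers was 210.0 and 274.3 in Control and 33.9 and 44.7 in HAND1_OE. Apart from SPN, the called markers also stand in the lists above. PTPRC, which encodes CD45, was at or below 0.0227 FPKM in every library. The part of these markers in the GATA1 result was not tested, and in bulk RNA fewer cells of a type and less RNA per cell cannot be told apart.

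Progenitor and endothelial targets of GATA2 went both ways. All 22 were tested, 6 were called lower and 2 higher, with a median of -0.33 (-0.56 without Control replicate 2 and -0.22 without HAND1_OE replicate 1). Of those called lower, RUNX1, SPI1, LMO2 and MYB also stand in the list of hematopoietic partners. RUNX1 and SPI1 were lower (-3.22 and -2.86, adjusted p = 0.0132 and 0.0149), and SPI1, a myeloid factor, went from 26.2 and 22.4 FPKM to 3.79 and 1.52 FPKM. ANGPT2, an angiopoietin released by endothelium, rose from 5.92 and 6.63 FPKM to 59.3 and 52.4 FPKM (2.96, adjusted p = 0.00379), and the endothelial gene VWF from 31.3 and 14.6 FPKM to 107 and 95.4 FPKM (2.18, adjusted p = 0.0338). KDR, an endothelial gene of the same list, was at 272.2 and 268.1 FPKM in Control versus 250.9 and 267.1 FPKM in HAND1_OE and was not called. SOX18, however, was called lower, from 126.8 and 122.6 FPKM to 51.3 and 48.3 FPKM (-1.31, adjusted p = 0.0121). So was HHEX, from 93.7 and 91.7 FPKM to 36.6 and 41.7 FPKM (-1.225, adjusted p = 0.0168). With a library left out, SOX18 ran from -1.35 to -1.27 and HHEX from -1.32 to -1.13. Among the 11 endothelial markers, CLDN5, a tight junction protein, was the gene called (-2.27, adjusted p = 0.007).

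Genes of the lineages for which GATA3 is known were in part under the filter. Of 14 lymphoid genes 5 were tested and limma called none (2 higher at an unadjusted p under 0.05, median 0.20, or 0.072 without Control replicate 1 and 0.32 without Control replicate 2), and CD3E and IL4 were at 0 in every library. Of 7 T and innate lymphoid markers, CD3E, CD2 and GZMB were at 0 in every library, and 2 were tested and not called. These were CD3D (0.88, adjusted p = 0.119), which passed the filter through HAND1_OE only, and CD7 (-1.22, adjusted p = 0.0505), which passed it through Control only. Of 14 trophoblast and amnion genes 8 were tested with a median of 0.13 (0.28 without HAND1_OE replicate 1, 0.59 without Control replicate 2 and 0.0099 without Control replicate 1), and TFAP2A was called higher, from 3.36 and 3.18 FPKM to 9.66 and 7.25 FPKM (1.14, adjusted p = 0.0419). That call was lost without Control replicate 1, Control replicate 2 or HAND1_OE replicate 1 (adjusted p up to 0.149). All 6 trophoblast markers stayed under 1 FPKM in every library.

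No cardiac partner or target of GATA4 and GATA6 was called higher by limma. At an unadjusted p under 0.05, 2 partners and 2 targets were higher. At the same level 4 partners and 4 targets were lower, the called genes included. Of those lower, HAND2 and NKX2-5 stand in both lists. Of 15 partners 14 were tested, 2 were called lower, none was called higher and the median was -0.19. HAND2, a close relative of HAND1, fell from 35.4 and 36.8 FPKM to 7.24 and 9.09 FPKM (-2.02, adjusted p = 0.0073), and FOXH1, a nodal pathway factor, differed by -1.61 (adjusted p = 0.0219, and 0.0771 without Control replicate 2). NKX2-5, the classic GATA4 partner, was at 40.9 and 22.9 FPKM in Control versus 19.6 and 14.7 FPKM in HAND1_OE. It was not called (-0.82, adjusted p = 0.25) but was lower at an unadjusted p under 0.05. The same held for SMARCD3 (-0.46, adjusted p = 0.225). The partners higher before adjustment were TBX2, at 0.506 and 0.248 FPKM in Control versus 4.56 and 1.74 FPKM in HAND1_OE (1.51, adjusted p = 0.102), and TBX3, at 13.1 and 19.8 against 33.7 and 29.9 FPKM (0.94, adjusted p = 0.094), both named after their values were seen. TBX2 passed the filter through HAND1_OE only, so it could enter the test only as higher.

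Of 22 cardiac targets 14 were tested, 3 were called lower and none higher, with a median of 0.05 that was -0.31 without Control replicate 1, -0.26 without HAND1_OE replicate 2 and 0.28 without HAND1_OE replicate 1. MYL4, the atrial and embryonic myosin light chain, went from 68.1 and 75.9 FPKM to 4.68 and 3.85 FPKM (-3.80, adjusted p = 0.00335). Its pattern over the libraries was among the 5 most like that of GATA1, as given below. HAND2 was the second called gene, and TNNI3 the third (-1.22, adjusted p = 0.0441, a call lost with any 1 library left out). TNNI3 went from 1.83 and 1.56 FPKM to 0.196 and 0.125 FPKM and passed the filter through Control only. TNNT2, at 1.39 and 1.64 FPKM in Control versus 3.50 and 6.37 FPKM in HAND1_OE (1.20, adjusted p = 0.0914), and ACTC1, at 19.2 and 9.32 against 27.4 and 28.6 FPKM (1.01, adjusted p = 0.189), were the targets higher before adjustment, also named after their values were seen. NPPA and MYH6, which define working cardiomyocytes, were at most 0.133 and 0.466 FPKM in any library. The summed FPKM of 7 cardiomyocyte markers was 29.9 to 47.3 in Control and 26.9 to 27.4 in HAND1_OE, and none was called. NKX2-5 made up most of that sum, and the other 6 markers came to 6.35 and 6.99 FPKM in Control versus 7.34 and 12.7 FPKM in HAND1_OE.

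Of 22 endoderm and yolk sac targets 19 were tested and limma called none (before adjustment 3 had a p under 0.05), with a median of 0.28. This median depended on the library left out, at -0.34 without HAND1_OE replicate 2, 0.95 without HAND1_OE replicate 1, 0.62 without Control replicate 2 and 0.14 without Control replicate 1. The summed FPKM of 7 endoderm and liver markers was 257.7 and 413.7 in Control and 294.0 and 934.7 in HAND1_OE, so that HAND1_OE replicate 2 stood above the rest. Between the 2 HAND1_OE libraries GATA4 was 72.7 FPKM in that one against 75.0 FPKM in the other, and GATA6 was 11.9 against 10.0 FPKM. In Control, replicate 2 had the higher marker sum. There GATA4 was 42.9 FPKM against 52.3 FPKM in replicate 1, and GATA6 was 15.3 against 12.0 FPKM. The part of the endoderm markers in these values was not tested. Of 6 tested stroma markers 3 were called higher beside GATA4, PDGFRB (2.03, adjusted p = 0.0164), POSTN (1.97, adjusted p = 0.009) and LUM (1.41, adjusted p = 0.0214, and 0.0739 without Control replicate 1). POSTN was at 0.825 and 0.922 FPKM in Control versus 6.70 and 6.01 FPKM in HAND1_OE. It passed the filter through HAND1_OE only, so it could enter the test only as higher. COL3A1 (1.16, adjusted p = 0.1), PDGFRA (1.20, adjusted p = 0.0547) and COL1A1 (-0.23, adjusted p = 0.52) were not called. The list summed to 276.8 and 207.2 FPKM in Control versus 492.5 and 399.8 FPKM in HAND1_OE. The part of the stroma markers in the GATA4 values was not tested. No pluripotent or epithelial marker was called, with sums of 54.3 to 88.7 and 158.1 to 245.3 FPKM over the 4 libraries.

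The complexes that FOG cofactors bring to GATA factors were called in no case (limma, with 2 genes lower at an unadjusted p under 0.05). The 16 genes of NuRD, CtBP and TACC3 were all tested, with a range from -0.49 to 0.18 and a median of -0.09, which ran from -0.17 (Control replicate 2 left out) to -0.037 (HAND1_OE replicate 2 left out), with -0.047 when Control replicate 1 was left out. CHD4, the NuRD remodeler, was at 88.4 and 85.3 FPKM in Control versus 79.8 and 83.0 FPKM in HAND1_OE. The 9 other proteins with a GATA-type zinc finger, 5 of which belong to those complexes, were also all tested and none was called (1 lower at an unadjusted p under 0.05, median -0.21, or -0.073 without HAND1_OE replicate 1).

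**Figure D4:**
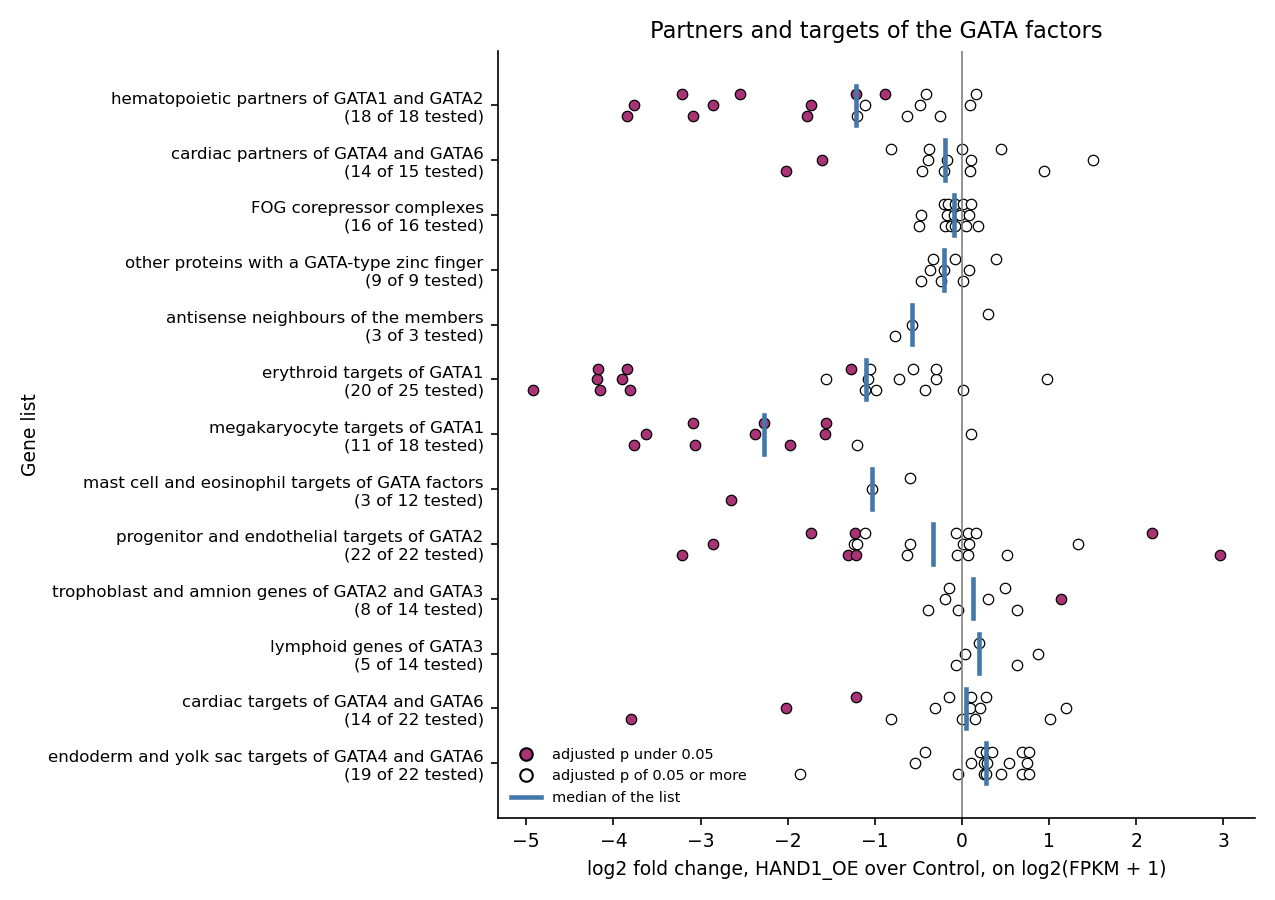
Difference between HAND1_OE and Control on the log2(FPKM + 1) scale for the tested genes of each list of partners, targets and neighbours, 1 point a gene, filled where the adjusted p was under 0.05, with a blue bar at the list median. All filled points lie to the left among the hematopoietic partners and the erythroid and megakaryocyte targets (medians of -1.21, -1.10 and -2.27), 6 lie to the left and 2 to the right among the progenitor and endothelial targets of GATA2, and the 1 of the trophoblast and amnion list lies to the right.

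The genes whose pattern over the 4 libraries was most like that of a member were found from log2(FPKM + 1) profiles, each centred on its own mean, by the smallest root mean square difference. For GATA1 they were NFE2 (0.066), KLF1 (0.094), ITGA2B (0.13), MYL4 (0.17) and HBG2 (0.20), and 4 of these 5 stand in the lists of GATA1 partners or targets. For ZFPM2 they were SMAD1 (0.036), POU4F1 (0.038), GLUL (0.039), ADGRV1 (0.046) and AL139220.2 (0.051). With 4 libraries in 2 groups, many genes with a like difference have a like profile. The lists were also chosen with earlier results of these data known. These likenesses, and the count of list genes among them, are therefore descriptions only.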

How the data were processed

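The deposited table held 4 columns of FPKM, 1 per library, made by the authors. The unit was taken from the study and from the values. The submitters' processing notes name BWA, Bowtie, RSEM and hg19 without versions or roles, whereas the coordinates in the table matched GRCh38. Reads behind each value and any scaling between libraries are not given in the sources used here. Columns of values without a sample numbered 0. Of 58365 rows, 45 Y copies and 91 rows with a repeated ID were left out.

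The 14622 genes at or above 1 FPKM in 2 or more libraries were fitted as log2(FPKM + 1) with limma 3.58.1 in R 4.3.3 (mean-variance trend, no covariate), with Benjamini-Hochberg adjustment over all of them and a threshold of 0.05. The code was tested on simulated data. Where a symbol had several rows, the one with the highest mean was used. Alternatives were another pseudocount (0.1), other filters, quantile and median-ratio scaling, no trend, the replicate number as a block, summed rows and each library left out.

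The members and lists were chosen with earlier results of these data known. All 8 members, HAND1, the antisense neighbours, up to 4 called genes of each list with the largest differences and, for up to 4 members, the 5 genes most like it were to be named. Likeness is given here for GATA1 and ZFPM2. Any other gene named was chosen after its values were seen. Promoter windows were the 250 bases before RefSeq starts (GRCh38.p14), exons were from GENCODE release 29, and figures were drawn with matplotlib 3.10.9.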

Additional observations from a re-analysis of the deposited data

How the results depend on the processing

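GATA1 kept its direction in every alternative that tested it and its call in all of them but 1, with a difference of -4.21 to -3.51 when a library was left out (adjusted p at most 0.0115) and -4.77 with a pseudocount of 0.1. The number of members called, 1, was 0 when every library had to reach 1 FPKM, because GATA1 was then not tested, and 0 when all genes above 0 FPKM were admitted. Among those 29860 genes limma called 0 higher and 0 lower, with 1458 and 2352 at an unadjusted p under 0.05, 5 members among them, and GATA1 at -3.86 (adjusted p = 0.153).

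The replicate numbers come from titles and join 2 pairs. Whether the libraries of a pair share more than the number is not stated. The deviations of same-numbered libraries from their group means correlated across genes at 0.38. With the replicate block 3 members were called, GATA1, GATA4 (0.63, adjusted p = 0.0384) and GATA5 (0.66, adjusted p = 0.0383), while all genes called rose to 597 higher and 712 lower from 299 and 309. With a library left out there were 134 to 266 genes called higher and 137 to 309 called lower, the lowest without Control replicate 2, and 1 member called in each case. A lone library was then assumed to vary like the rest.

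GATA3, at 0.02, reversed sign to -0.023 without Control replicate 2 and to -0.088 without HAND1_OE replicate 2, with a range of -0.088 to 0.14 over the 4 libraries left out in turn and no call. The gap between the medians of the sets was 0.38 to 0.79 with a library left out. Of 87 recomputed member results 82 kept their direction and side of the threshold. Of 429 recomputed list results 357 stayed close and 72 moved. The causes were not tested.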
